A study of Caenorhabditis elegans with 2 samples.

Results

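The genes described here are the 163 snoRNA genes of the Caenorhabditis elegans nuclear genome that do not lie wholly inside a protein-coding gene on the same strand. They were taken from the Ensembl annotation of WBcel235, the assembly also called ce11, which holds 346 nuclear snoRNA genes among 46890 nuclear genes of all kinds. The other 183 snoRNA genes lie inside a protein-coding gene on the same strand and are called hosted below. Of the 163 genes, 124 were intergenic, 33 lay inside a protein-coding gene on the opposite strand, 5 partly overlapped one on the opposite strand and 1 partly overlapped one on the same strand. The choice used the annotation alone and no peak of any gene, although this class of genes was taken up with earlier results of these data known.

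Small nucleolar RNAs guide chemical changes of other RNAs, mostly ribosomal RNA: box C/D snoRNAs guide ribose methylation and box H/ACA snoRNAs guide pseudouridylation. In many animals a hosted snoRNA is cut out of an intron of its host transcript, whereas a snoRNA gene outside such a host needs a promoter of its own. In C. elegans many of these promoters are read by RNA polymerase III and carry the A box and B box, the short elements that tRNA genes hold inside the gene and that recruit the transcription factors TFIIIC and then TFIIIB. RNA polymerase III stops at a run of T, written TTTT here. The tagged protein, NHR-232, is one of the nuclear hormone receptors, zinc-finger transcription factors of which nematodes have an unusually large number.

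The study was a ChIP-seq experiment with a single group of 2 samples, biological replicates 1 and 2. Hermaphrodites of strain OP489, unc-119(tm4063) III; wgIs489, carry a transgene for NHR-232 with a C-terminal GFP-FLAG tag, and whole late embryos were collected 5 hours after synchronization by egg bleaching. Chromatin was sheared by sonication and precipitated with an anti-GFP antibody, although the antibody field of the labels names nhr-232 itself. A peak list was deposited for each replicate, with 20530 regions for replicate 1 and 22891 for replicate 2, together with a pooled list of 21094 regions and a list of the 519 regions reproducible between replicates by the irreproducible discovery rate (IDR). Read depth is unknown here, and no untagged worms or other factors were analysed, so whether a region is particular to NHR-232 was not tested. Both replicates came from one transgenic line, and whole embryos hold many cell types, so a region cannot be assigned to a cell type.

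The regions with the strongest signal beside these genes lay over the bases just before the gene, where at some genes the letters of one or both promoter boxes could be read. The 100 bases before the annotated 5′ end are shown for the genes of highest signal on chromosomes II to V, read 5′ to 3′ on the strand of the gene from the RefSeq sequence of WBcel235. Capitals mark the letters of a loose A box, TNGCNNANT, or a loose B box, GNTCNANNC. The genes lay at II:11960898-11960959 on the plus strand (W03C9.9), V:11314258-11314332 on the plus strand (T03F7.8), V:15873855-15873926 on the minus strand (T06C12.16) and II:5105157-5105231 on the minus strand (C04G6.12). F32E10.10 lay at IV:7574122-7574191 on the plus strand, C27H5.9 at II:7184010-7184078 on the minus strand and C46C2.8 at IV:9191261-9191333 on the minus strand. B0334.12, also among these genes, is shown where it is described.
W03C9.9: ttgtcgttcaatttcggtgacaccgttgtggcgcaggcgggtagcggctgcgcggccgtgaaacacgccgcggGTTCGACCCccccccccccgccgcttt
T03F7.8: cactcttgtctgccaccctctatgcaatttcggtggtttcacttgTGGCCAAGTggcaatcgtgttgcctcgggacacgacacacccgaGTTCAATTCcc
T06C12.16: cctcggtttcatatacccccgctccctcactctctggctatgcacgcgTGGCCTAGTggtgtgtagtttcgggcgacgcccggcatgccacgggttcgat
C04G6.12: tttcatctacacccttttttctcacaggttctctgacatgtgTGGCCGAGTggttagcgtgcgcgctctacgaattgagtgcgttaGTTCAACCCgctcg
F32E10.10: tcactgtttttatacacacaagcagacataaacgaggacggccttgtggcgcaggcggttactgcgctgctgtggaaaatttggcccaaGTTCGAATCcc
C27H5.9: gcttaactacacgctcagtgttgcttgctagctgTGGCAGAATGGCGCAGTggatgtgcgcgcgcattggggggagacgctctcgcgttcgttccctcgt
C46C2.8: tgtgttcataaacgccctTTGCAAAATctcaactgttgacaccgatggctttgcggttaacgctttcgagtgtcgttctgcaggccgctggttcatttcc

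T03F7.8 and C04G6.12 held a loose A box followed by a loose B box, while W03C9.9 and F32E10.10 held the stricter B box GTTCGANNC with no match to TNGCNNANT. Both windows without that match held tggcgcagg, which differs from the loose A box only in its last letter. T06C12.16 held the strict A box TGGCNNAGT, and its letters gttcga ended too close to the 5′ end for the full B box to fit in the window. C27H5.9 held overlapping A box matches and C46C2.8 a loose A box alone.

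An IDR summit, the highest point of a reproducible region, lay within 200 bp of 29 of the 163 genes (17.8%, Wilson 95% interval 12.7% to 24.4%). The same held for 1.79% of all annotated nuclear genes. All 29 summits were also within 200 bp of the annotated 5′ end, against 1.25% of nuclear genes, and no gene shared its summit with another of the 163. The share was 23 of 183 among hosted snoRNA genes (12.6%, 8.52% to 18.2%). The 163 genes and the hosted genes did not differ beyond counting error in this share (odds ratio 1.51, two-sided Fisher's exact test p = 0.179, 0.239 after Benjamini-Hochberg adjustment over 4 tests). Genes are the units of these tests and are not replicates of the experiment.

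By surroundings, 18 of the 124 intergenic genes (14.5%, 9.38% to 21.8%) had an IDR summit, as did 8 of the 33 inside a gene on the opposite strand (24.2%, 12.8% to 41.0%) and 3 of the 5 that partly overlapped one (23.1% to 88.2%). The intervals of the first pair overlap. That of the 5 lies above the intergenic one, but it rests on 5 genes, and the difference was not tested. No summit of the 29 had another snoRNA, tRNA, snRNA or rRNA gene within 200 bp. The summits lay a median of 1241 bp from the start of the closest protein-coding gene, with a minimum of 132 bp, and 7 fell in a promoter window from 1000 bp before to 200 bp after such a start. All 29 summits were thus nearer to the 5′ end of the snoRNA gene than to the start of any protein-coding gene.

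The wider peak lists held more of the genes but with less contrast to the genome. A pooled summit lay within 200 bp of 72 of the 163 genes (44.2%, 36.8% to 51.8%), against 25.6% of all nuclear genes. Replicate 1 alone gave 66 genes and replicate 2 gave 72. When each replicate's list was cut to its 519 strongest regions, 28 genes had a summit in replicate 1, 30 in replicate 2 and 27 in both (16.6%, 11.6% to 23.0%), against 1.37% of nuclear genes in both. These 27 were all among the 29 with an IDR summit.

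The 29 regions ranked high in the IDR list. Their deposited signal value, the authors' enrichment value per region, had a median of 333 (quartiles 218 and 394, range 106 to 797), against 135 over all 519 regions, 166 at tRNA genes and 222 at hosted snoRNA genes. The hosted values spread as high, with quartiles of 152 and 405 and a range of 89.7 to 863. The difference from hosted genes was not tested. Of the 29, 5 were among the strongest 20 regions and 19 among the strongest 100, with 6 in ranks 101 to 200, 3 in ranks 201 to 300, 1 in ranks 301 to 400 and 0 below that. The lowest rank among them was 382.

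W03C9.9, intergenic on chromosome II, had the strongest region of the set: its signal was 395 in replicate 1 and 402 in replicate 2, and 797 in the IDR list at rank 4. ZK265.10, intergenic on chromosome I, followed with 417 and 365 in the replicates and 777 in the IDR list. T03F7.8, inside cutl-18 on the opposite strand, had 325 and 418, and 742 in the IDR list. These genes and T06C12.16 stood apart from the rest. T06C12.16, intergenic near the chemoreceptor gene str-56, had 320 and 337, and 658 in the IDR list. The next was C04G6.12, inside the MAP kinase gene mpk-2 on the opposite strand, with 220 and 260, and 480 in the IDR list.

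A middle group of 12 genes had IDR signals between 324 and 405. It included ZK484.9 (204 in each replicate), T02E1.9 (183 and 213), B0334.12 (176 and 219), Y23H5B.10 (176 and 199), F32E10.10 (168 and 201) and C27H5.9 (164 and 205). The first gene aside, replicate 2 was the higher of each pair here. T19B4.8 (166 and 200), C46C2.8 (178 and 178), C41C4.11 (181 and 167), ZK643.9 (164 and 168), H09I01.2 (157 and 170) and T27A3.9 (170 and 153) completed it, with no common direction. The replicate values of each gene overlapped those of the next gene in this order, so the order of neighbours within the group is not settled by 2 samples.

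Y75B12B.12 (144 and 141), F12F6.11 (137 and 123) and T10B9.11 (139 and 96.9) came next, with IDR signals of 280, 265 and 237. The last 9 genes ran from 225 at T04A8.17 down to 106 at C17D12.8. Across the 29, the matched region's signal ranged from 36.1 to 417 in replicate 1 (median 164) and from 59.8 to 418 in replicate 2 (median 168), while the median of all regions was 18.5 and 17.4. Replicate 2 was the higher in 20 of 29 genes, with a median ratio of 1.05 and a range of 0.696 to 2.58. The replicates followed each other across the genes (Pearson's r 0.916 on the log2 scale, Spearman's rho 0.921, n = 29 genes that share the same 2 libraries and were chosen for reproducible peaks).

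**Figure D1:**
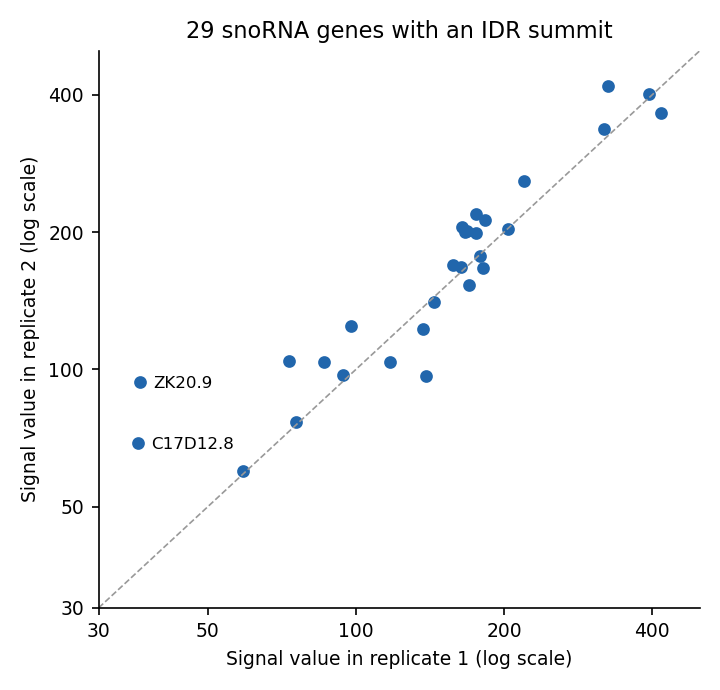
Deposited signal value of the region at each of the 29 snoRNA genes with an IDR summit, in replicate 1 (x axis) and replicate 2 (y axis), both on log scales; the dashed line marks equal values. Most points lie near the line, and ZK20.9 and C17D12.8 lie above it, with 36.4 and 36.1 in replicate 1 against 94.1 and 69.0 in replicate 2.

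ZK20.9 and C17D12.8 were the genes that rested most on one sample. The region at ZK20.9 ranked 1018 in replicate 1 and 175 in replicate 2, and that at C17D12.8 ranked 1052 and 269. Both therefore reached the strongest regions of replicate 2 only. Among genes without an IDR summit, M03D4.78 was in the strongest regions of replicate 1 only (pooled signal 70.4, rank 930) and W06H8.17 in those of replicate 2 only (65.7, rank 1130).

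The summits fell in a narrow band before the gene. Taking the 5′ end as 0 and upstream as negative, the IDR summits had a median position of -54 (quartiles -68 and -45), and 28 of 29 lay upstream, between -79 and -18. Only the nearest summit of each gene was counted. The region at T03F7.8 was also listed with a further, weaker IDR summit past the 3′ end of the gene (signal 92.8, rank 479). In the matched regions of each replicate the median was -54 in replicate 1 and -55 in replicate 2. The summits of one gene differed between replicates by a median of 11 bp, by at most 20 bp in 23 of 29 genes and by at most 47 bp. At C27H5.9 the IDR summit was at -18, but the replicates placed it at -54 and -55.

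At tRNA genes, which hold their boxes inside the gene, the summits lay elsewhere. The nearest IDR summit was upstream of the 5′ end in 28 of 29 of the snoRNA genes (96.6%) and in 60 of 202 tRNA genes (29.7%), whose median position was 12 (odds ratio 66.3, two-sided Fisher's exact test p = 1.68e-12, adjusted p = 6.7e-12). Hosted snoRNA genes had an upstream summit in 20 of 23 cases (87.0%), and also differed from tRNA genes (odds ratio 15.8, Fisher's exact test p = 1.23e-07, adjusted p = 2.46e-07). Whether tRNA genes shared summits was not checked for either test against them. The snoRNA genes outside hosts did not differ from hosted ones beyond counting error (odds ratio 4.2, Fisher's exact test p = 0.31, adjusted p = 0.31), so the upstream position is not particular to genes outside hosts.

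**Figure D2:**
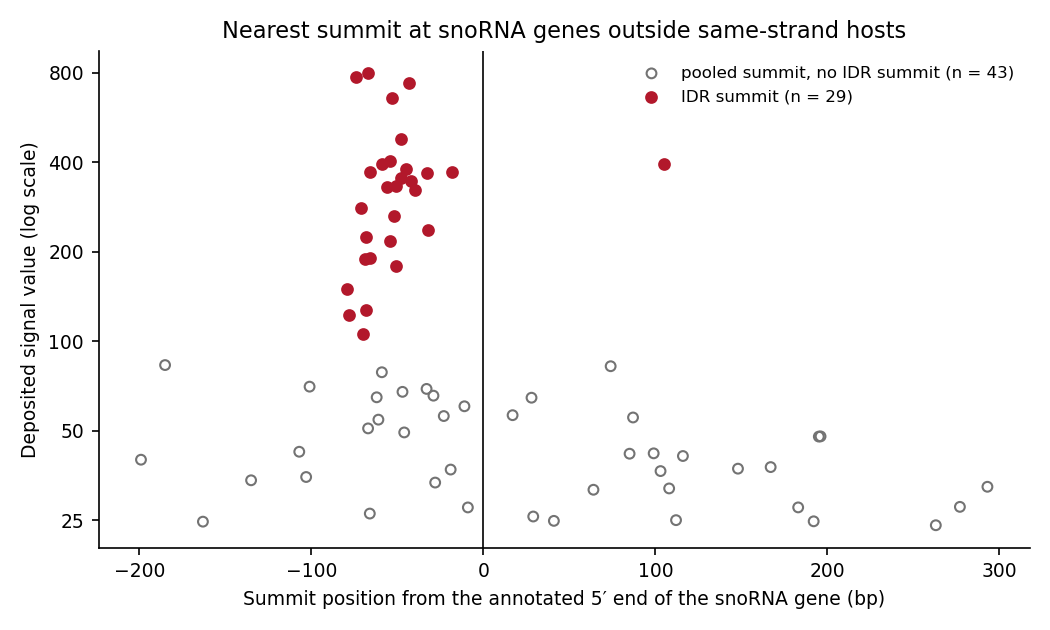
Position of the nearest summit from the annotated 5′ end in bp (x axis, upstream negative) against its deposited signal value (y axis, log scale), for the 29 genes with an IDR summit (filled) and the 43 with a pooled summit only (open). Filled points stand between -79 and -18 apart from B0334.12 at 105, and open points spread from -199 to 293 at signals of 83.2 or less. The lower signal of the open points follows from the grouping, as the lowest IDR signal was 89.4.

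The 200 bp limit did not cut through the group. The farthest summits inside it were at ZK265.10, H04D03.5 and Y39G10AR.24, which lay 74, 78 and 79 bp from the gene. The nearest outside were C01B10.48 on chromosome IV, with a summit 223 bp upstream at a signal of 94.8, C27H5.10, 323 bp from the summit that belongs to C27H5.9, and F37F2.4 at 2390 bp.

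The summits of the 43 genes with a pooled but no IDR summit were less often upstream. Their pooled signal had a median of 41.2 (range 24.1 to 83.2), against 32.3 over all pooled regions, and a median rank of 5014. Where an IDR summit was also the nearest pooled one, its signal was the same in both lists, and the lowest IDR signal was 89.4. The lower signal of these genes thus follows from the grouping and is not a separate result. Only 21 of the 43 summits were upstream (48.8%), around a median position of 17 (quartiles -60 and 110). The best ranks were M7.15 (83.2, rank 604, at -185), C26G2.11 (82.5, rank 612, at 74), F59C6.15 (78.7, rank 690, at -59), M03D4.78 (rank 930, at -101) and C26C6.13 (69.2, rank 983, at -33). In the pooled list, F59C6.15 and C26C6.13 thus had a weak summit inside the band of the 28 upstream summits. The nearest summits in the replicate lists differed between replicates, lying at -4 in replicate 1 and 113 in replicate 2 for C26C6.13, at 79 and -57 for F59C6.15 and at -103 and -54 for M03D4.78. The remaining 91 of the 163 genes had no summit within 200 bp in the pooled list.

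Promoter box letters were common before the 5′ end of genes with a summit and scarce before the others. Motifs were searched in the 100 bases before the 5′ end on the strand of the gene. The loose B box GNTCNANNC stood before 16 of the 29 genes (55.2%), before 11 of the 134 genes without an IDR summit (8.21%) and before 3.50% of all nuclear genes. The strict B box GTTCGANNC, a subset of the loose one, stood before 8 of 29 (27.6%), 1 of 134 (0.746%) and 0.262% of all nuclear genes. Read the other way, 16 of the 27 genes with a loose B box had an IDR summit (59.3%, 40.7% to 75.5%), as did 8 of the 9 with a strict B box. The exception was Y59E1B.14, whose nearest pooled summit was 1146 bp away.

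The loose A box TNGCNNANT stood before 14 of 29 genes (48.3%), 11.9% of those without an IDR summit and 8.28% of all nuclear genes, and the strict A box TGGCNNAGT before 24.1%, 2.99% and 0.237%. A loose A box followed by a loose B box was found at 9 of 29 genes (31.0%), 1 of 134 (0.746%) and 0.175% of nuclear genes. Hosted genes with an IDR summit had nearly the same shares: 56.5% with the loose B box, 30.4% with the strict one and 52.2% with the loose A box. Hosted genes without a summit had 6.88%, 0.625% and 10.6%. The box letters therefore went with the summit in both classes of snoRNA gene. Of the 29 genes, 8 held neither loose box, among them ZK265.10, which had the second highest signal, B0334.12, Y23H5B.10 and H09I01.2. At Y23H5B.10 the B box core GTTCNA started at -8, too close to the 5′ end for the full B box to fit in the window. T04A8.17, also without a loose box, held this core at -14.

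**Figure D3:**
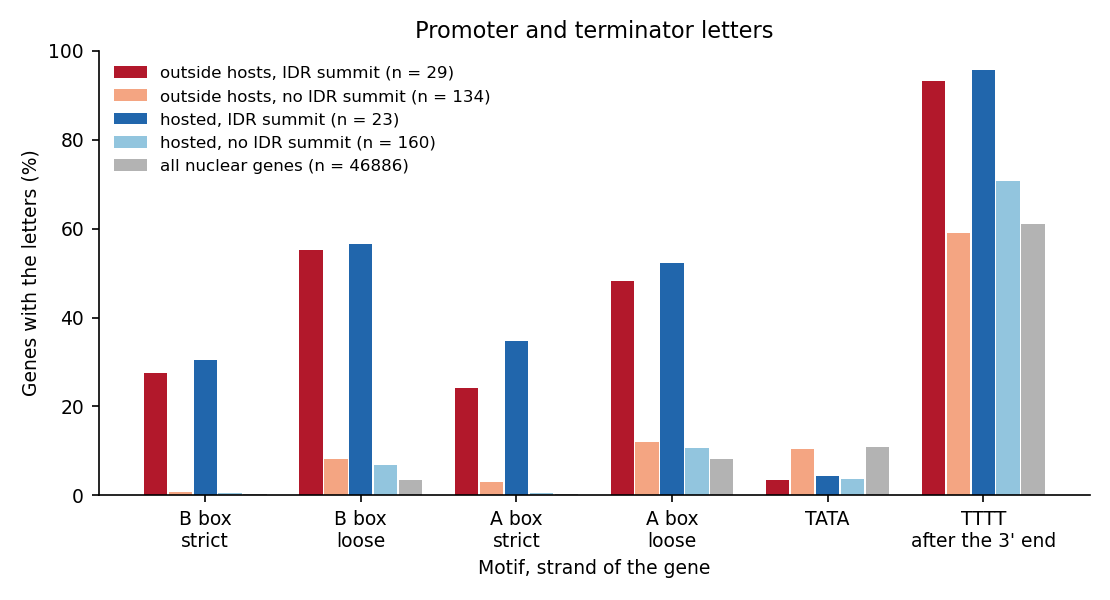
Share of genes in percent (y axis) with each set of letters on the strand of the gene (x axis), for snoRNA genes outside hosts with and without an IDR summit, hosted snoRNA genes with and without one, and all nuclear genes. Both classes with a summit have a loose B box at over 55% of genes, and those without at 8.21% and 6.88%.

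The boxes stood about as far apart as those inside tRNA genes. At the 16 genes with a loose B box it started at a median of -14 (range -27 to -10), and at the 14 with a loose A box that started at a median of -57. Where both stood in order, the starts were a median of 44 bp apart, and exactly 44 bp at 6 of the 9 genes. In tRNA genes with an IDR summit the A box started at a median of 7 and the B box at 51 inside the gene, 45 bp apart in the median of the 102 genes with both. The summit lay a median of 38 bp upstream of the B box start at the snoRNA genes (difference -38, quartiles -46.75 and -31.5) and 42 bp upstream at tRNA genes (difference -42, quartiles -65 and -11). Measured from the 5′ end the summits of these gene classes stood apart, and measured from the B box their quartile ranges overlapped.

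**Figure D4:**
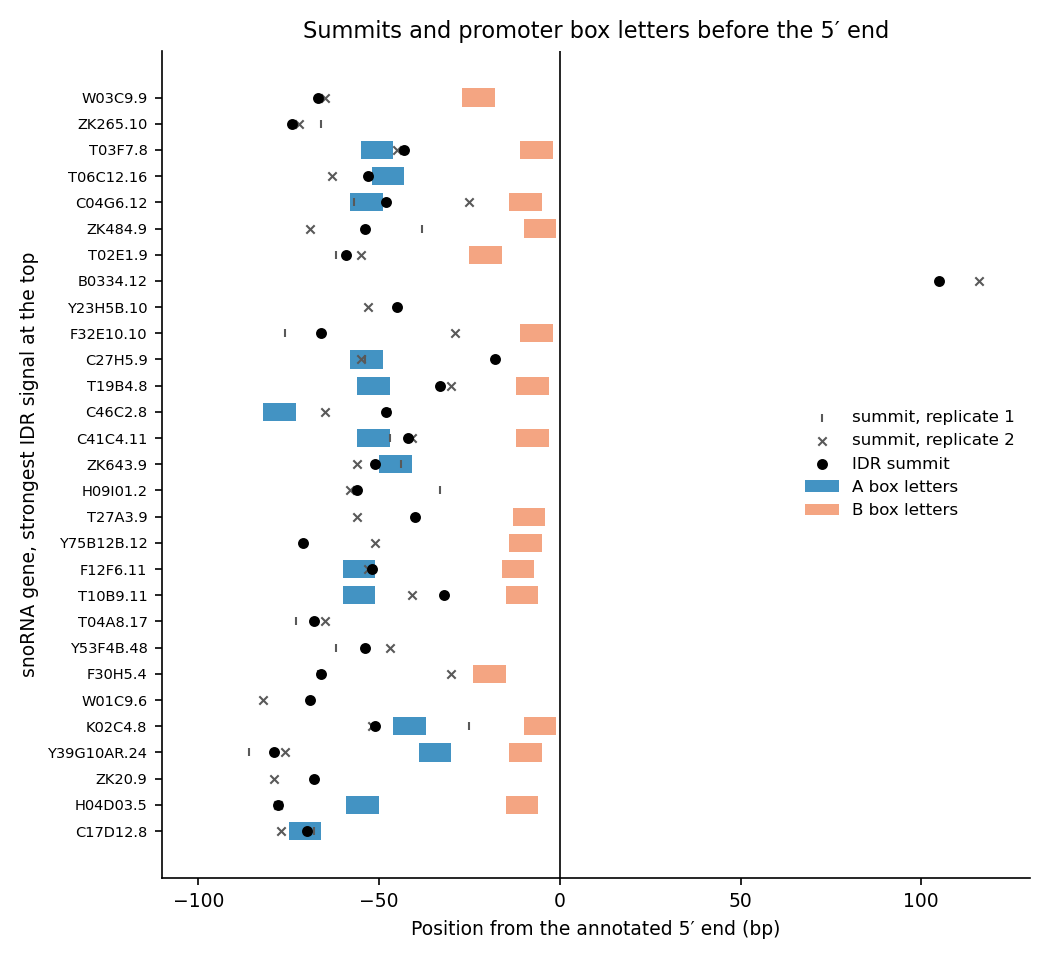
Position from the annotated 5′ end in bp (x axis) of the IDR summit, the summits in replicates 1 and 2, and the loose A box and B box letters, for the 29 genes in order of IDR signal (y axis). B boxes start between -27 and -10 and the summits lie upstream of them, while B0334.12 alone has its summits to the right of 0.

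Neither hormone receptor half-site searched, AGGTCA or AGTGCA, was frequent in these windows, and other half-site letters were not searched. On either strand AGGTCA was found at 0 of 29 genes, against 3.73% of those without an IDR summit and 2.37% of all nuclear genes, and AGTGCA at 2 of 29, against 5.22% and 3.04%. GAGAGA was found at 3 of 29 (10.3%), 11.2% and 6.75%. TATAAA on the strand of the gene stood before 1 of 29 genes (3.45%), 10.4% and 10.9%. An absent match says only that these letters are not in this window.

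Among all runs of 6 bases, the most frequent before the 29 genes were parts of the boxes. GTTCAA stood before 10 genes (34.5%, against 5.22% of those without a summit and 4.47% of all nuclear genes). The run GTTCGA stood before 9 (31.0%, against 1.49% and 1.54%). Next was AGTGGT at 8 genes (27.6%, against 3.73% and 1.15%). As frequent was the run TGGCGC with 8 genes (against 5.97% and 0.821%). Then the run GGCGCA stood before 8 genes (against 4.48% and 0.702%) and TTGTGG before 8 (against 2.24% and 1.77%). These last runs, with TGGCGC, can be read in the windows of W03C9.9 and F32E10.10, in the stretch where other genes have the A box.

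The 3′ ends also differed. TTTT lay within 50 bp past the 3′ end in 27 of the 29 genes (93.1%), 59.0% of the 134 without an IDR summit, 95.7% of hosted genes with one and 61.0% of all nuclear genes. Among hosted genes without an IDR summit the share was 70.6%. TTTT started within 10 bp in 21 of 29 (72.4%) against 30 of 134 (22.4%). Among hosted genes it did so in 19 of 23 with an IDR summit (82.6%) and in 28.1% of those without. The share within 10 bp over all nuclear genes is not given. The median start was 4 bp past the end in the 29 genes and 14 bp in the 134.

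B0334.12, on chromosome II at 11484683 to 11484752 on the plus strand and inside the potassium channel gene twk-5 on the opposite strand, was the single exception in position. Its summit was at 105 in the IDR list and in replicate 1 and at 116 in replicate 2, 36 bp past the annotated 3′ end. The 100 bases before its 5′ end held no box letters. The 100 bases past its 3′ end, read on the other strand, held the strict A box and a loose B box, starting 62 and 18 bp before that end. On that strand the summit would be at -36, inside the band of the other 28, and TTTT followed the far end. Both windows are shown with the same capitals.
B0334.12, before the annotated 5′ end: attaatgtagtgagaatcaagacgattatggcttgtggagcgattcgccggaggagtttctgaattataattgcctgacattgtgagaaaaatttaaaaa
B0334.12, past the 3′ end on the other strand: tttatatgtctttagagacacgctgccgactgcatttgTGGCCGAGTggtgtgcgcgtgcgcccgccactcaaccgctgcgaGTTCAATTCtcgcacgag

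Genes with a summit were shorter. Their annotated length had a median of 75 bp (range 62 to 144) against 151.5 bp (64 to 344) for the 134 without. An IDR summit was present at 19 of the 45 genes of at most 100 bp (42.2%, 29.0% to 56.7%) and at 10 of the 118 longer ones (8.47%, 4.67% to 14.9%). The GC content of the 100 bases before the 5′ end was also higher, with a median of 54% against 45%. At hosted genes the median length was 125 bp with an IDR summit and 128.5 bp without, while the median GC content was 56% and 40%. Length, GC content and box letters thus moved together with the summit at the genes outside hosts. At hosted genes the medians of length were close. The separate parts of these traits were not tested.

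The genes were sorted by letters that mark the kinds of snoRNA, where the annotation names only a snoRNA. Such short letters do not establish the kind, and how often other genes hold them is not given. Box C/D letters, TGATGA near the start and CTGA near the end, were present in 8 of the 163 genes, 2 of them with an IDR summit. Box H/ACA letters, ACA anywhere in the last 8 bases without those letters, were present in 30, of which 8 had a summit (26.7%, 14.2% to 44.4%). The other 125 genes fell in neither class by these letters, and 19 of them had a summit (15.2%, 9.95% to 22.5%). The intervals overlap.

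By chromosome, 8 of 38 genes on chromosome I, 10 of 36 on II, 4 of 16 on III, 4 of 31 on IV and 3 of 19 on V had an IDR summit. None of the 23 genes on X had one, where 3 counts of 23, the limit that a count of 0 allows, are 13.0% and the Wilson upper limit is 14.3%, and none of the 10 hosted genes on X did either. Most of the 23 X genes were longer than 100 bp, a length class in which 10 of 118 genes had a summit (8.47%). Whether X differs from the other chromosomes was not tested. Shares over all nuclear genes of each chromosome are not given. The highest pooled signal among the X genes was that of C26G2.11, given above. All 29 genes with a summit had flanks in which every run of 50 bases is unique in the genome. How the reads were placed was not tested.

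A list of 8 genes for core proteins of snoRNA particles and 6 genes for small RNA promoter factors was looked up for comparison. None of these 14 genes had an IDR summit in its promoter, the window from 1000 bp before to 200 bp after the 5′ end, where 1.34% of 19973 protein-coding genes had one. A pooled summit was present at 9 of the 14, against 27.2% of protein-coding genes. Of the box C/D core proteins, fib-1, the methyltransferase fibrillarin, had the strongest (signal 71.1, rank 905), and nol-56, nol-58 and snu-13 had 28.2, 28.0 and 30.2. Of the box H/ACA core proteins, dkc-1, the pseudouridine synthase, had 38.9 and nola-3 had 29.9, while garr-1 and Y48A6B.3 had none. Of the promoter factors, tbp-1, the TATA-binding protein, had 37.1, the small nuclear RNA activating complex genes snpc-1.1 and snpc-4 had 30.6 and 24.7, and snpc-1.2, snpc-1.3 and snpc-3.1 had none. All of these were weaker than the weakest region at the 29 snoRNA genes, which had 106, as follows from their having no IDR summit.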

How the data were processed

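The 2 samples are biological replicates 1 and 2 of one group, so no test compares conditions, and the labels do not say whether they came from separate cultures. Peak lists were deposited by the authors in narrowPeak form on ce11. Per the deposited file lists, each replicate list was made from that replicate's alignments and a control file, the pooled list from both alignments with the same control, and the IDR list from the pooled and replicate lists. Each deposited region has a signal value, a −log10 q-value and a summit offset. No source used here gives the aligner, the peak caller or its settings, so signal values were mostly compared within a list or as ranks. Where replicate values stand side by side or as a ratio, they are as deposited, with no scaling between the lists. The q-values were not used in a comparison. Lists on the older build were not used.

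Genes came from Ensembl release 115. The summit is the region's start plus its offset, and a gene was matched to the nearest summit within 200 bp of its body. Because a weaker summit sometimes lay nearer in a replicate list, replicate regions were matched to the IDR summit within 100 bp. Shares have Wilson 95% intervals, which cover counting error only. The 4 two-sided Fisher's exact tests were adjusted by Benjamini-Hochberg with a threshold of 0.05. The placement code was tested on simulated data. The genes, lists and tests were chosen with earlier results of these data known. Genes named are the 20 of highest IDR signal, those with a summit inside or past the gene, 3 on each side of the 200 bp limit, the 5 of best pooled rank without an IDR summit, those strong in 1 replicate only and the protein list. Y59E1B.14, T04A8.17 and the genes around a summit were added after their values were seen. Alternatives changed the distance limit, the list, the window and the motif. Python 3.11.15, pandas 2.3.3, numpy 2.4.6, scipy 1.17.1 and matplotlib 3.10.9 were used.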

Additional observations from a re-analysis of the deposited data

How the results depend on the processing

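Of 67 alternatives, 58 left the result within its limits, 9 moved it and 0 turned it round. Only the Fisher's exact tests could be turned round. Counts, medians and motif shares could only stay within their limits or move, and for a motif share the limits were its Wilson interval. The median summit position was -52.5 in the stronger 50% of the IDR regions and between -55 and -53 with either replicate left out, against a standard deviation of 0.707 bp between replicate medians. In windows from 250 bp before to 50 bp after the 5′ end, the loose A box rose to 69.0% of the 29 genes (42.6% of protein-coding genes), TATAAA to 31.0% (37.9%) and GAGAGA to 27.6% (21.8%), against 51.7%, 13.8% and 10.3% in the shorter window on both strands. On the strand of the gene only, TATAAA was at 3.45% and GAGAGA at 0%. A loose A box before a loose B box was at 31.0%, against 58.6% for the loose B box on both strands, and this pair, like GTTCNA, which stood before 18 of 29 genes, was chosen after seeing the data. The number of genes with an IDR summit ran from 21, without the genes inside one on the opposite strand, to 31 at 400 bp. No paired analysis was possible because there is only 1 group. Unknown read depth, the control not analysed here and 2 samples limit these values: a gene without a region is not shown to be unbound.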
